A study of Drosophila melanogaster with 12 samples.

Results

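GstT1, GstT4, GstO1, GstE11, GstE6 and GstD3 are 6 glutathione transferase genes of Drosophila melanogaster, taken by symbol from a table of linear RNA in mature follicles. All 6 had values, in 10 of the 10162 listed transcripts, among 5954 listed genes. The follicles were at stage 14, the last stage of egg development, came from ovaries of the wild-type stock Oregon R, and were sampled at day 2 (3 linear RNA libraries) and day 12 (3 linear RNA libraries). No transgene, mutation or drug is named for either group, and the sources used here do not give the event from which the days count, the age of the females or the number of follicles per library. The authors deposited 1 value for the 3 libraries of each day, in an abundance unit that is not stated (of the FPKM or TPM kind, taken here as per length). How the libraries were combined is not stated, and the value is taken as their mean and called so below. The values therefore carry no SD, and every p is the authors' own. A raw p is a p before adjustment for the number of transcripts.

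Glutathione transferases join the tripeptide glutathione to reactive or foreign molecules, which makes them soluble and marks them for export, and some also reduce peroxides. The soluble enzymes fall into classes by sequence: delta and epsilon are the large insect classes of toxin metabolism, while theta, omega, sigma and zeta are shared with vertebrates. Omega enzymes use a cysteine rather than a serine or tyrosine and act as reductases. An egg stores maternal RNA for enzymes that the early embryo cannot yet make from its own genes, and a stage 14 follicle holds such a store together with a layer of follicle cells.

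The members cover 4 classes and 4 chromosome arms. In the Ensembl annotation of BDGP6, whose coordinates are those of dm6, the theta gene GstT1 (FBgn0050000) lies on 2R from 9605988 to 9607184 and has 4 exons and 228 codons. GstT4 (FBgn0030484), also of the theta class, lies on the X from 13404749 to 13409323 and has 4 exons, 237 codons and an intron of 3203 bp. The omega gene GstO1 (FBgn0035907) lies on 3L from 8523742 to 8524866 and has 4 exons and 254 codons. For the epsilon class, GstE11 (FBgn0034354) has a listed transcript on 2R from 18503608 to 18504844, with 3 exons and 225 codons. GstE6 (FBgn0063494) lies on 2R from 18406011 to 18406761, in 1 exon with 222 codons. The delta gene GstD3 (FBgn0010039) lies on 3R from 12373068 to 12373813, also in 1 exon, and has 199 codons, fewer than the 209 of GstD1 and the 218 of GstD9. GstO1 is on the minus strand and the other 5 are on the plus strand. No member overlaps another annotated gene, but 4 of them stand beside relatives on the same strand. GstT2 starts 107 bp after GstT1, and GstO2 lies 240 bp from GstO1. GstE5 and GstE7 lie 672 bp and 162 bp from GstE6, and GstD2 and GstD4 363 bp and 286 bp from GstD3. Reads shared between such relatives could have been split by the authors' counting, and how alike the copies are was not measured here.

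**Figure D1:**
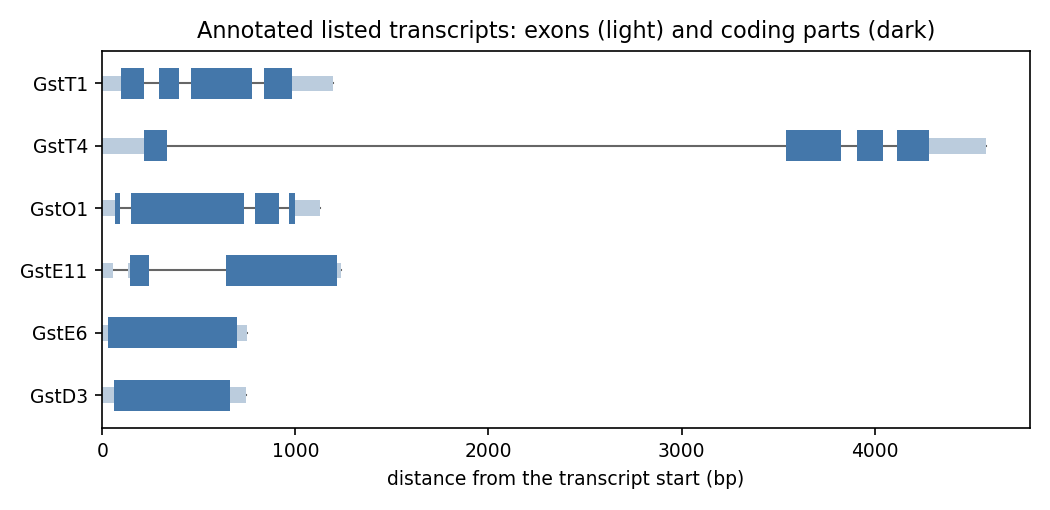
Annotated exons (light) and coding parts (dark) of the listed annotated transcript of each of the 6 genes, by distance from its start in bp. GstE6 and GstD3 have 1 exon, and GstT4 is stretched by an intron of 3203 bp.

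Germline markers had the highest sum among the cell type markers. All 5 germline markers, osk, nos, vas, bcd and CycB, were measured, and their sum was 3346 at day 2 and 3787 at day 12. Of 9 markers of mature follicle cells 2 were measured, with a day 2 sum of 304, and of 5 markers of earlier follicle cells 3, with a sum of 21.2. Of the 11 markers of muscle sheath, hemocytes and fat body 0 were among the measured genes. The sums cover unlike numbers of genes, and CycB alone was at 1702 at day 2, so they do not measure cell content. Most markers of mature follicle cells were not measured either, so a missing marker does not show that a cell type was absent. Listed values summed to 628567 at day 2 and 634242 at day 12, the median log2 ratio of gene sums was 0.04, and 58.5% of genes had a higher sum at day 12. The depth of the libraries is unknown.

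GstT1 carried the only member transcript that passed the authors' test over all transcripts. The log2 ratio of the gene sum was 0.26, and 20.6% of all listed genes differed by at least as much. The assembled transcript TCONS_00003181, built by the authors from reads and absent from the annotation by its ID, was listed at 0 at day 2 and at 30.9 at day 12. Its adjusted p per the authors' deposited table was 0.00329, the second lowest p of the table. Only 18 transcripts were called at an adjusted p under 0.05 there, 0.177% of those listed, against 1 of the 10 member transcripts, whose call was known when the members were chosen. With a listed 0 and no counts, no fold change is given for it.

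The other 4 GstT1 transcripts were not called. The annotated transcript FBtr0088463 was the main one, with 98.5 at day 2 and 112 at day 12, a log2 ratio of 0.18. TCONS_00003182 was at 8.55 and 0.0783, TCONS_00003184 at 12.6 and 1.91, and TCONS_00003183 at 2.59 and 1.09. These 3 assembled transcripts thus had lower means at day 12 while TCONS_00003181 rose. Per the authors' deposited table their raw p were 0.401 for TCONS_00003182, 0.792 for TCONS_00003184 and 0.234 for TCONS_00003183, and that of the annotated transcript was 0.0577.

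Of the assembled GstT1 transcripts, 3 had values above 0 on both days and TCONS_00003181 at day 12 alone. Those listed above 0 at day 2 summed to 23.7 and then to 3.08, and all 4 assembled transcripts together to 23.7 and 34.0. The annotated transcript made up 80.6% of the gene at day 2 and 76.7% at day 12, and TCONS_00003181 made up 21.2% at day 12. The sum over the gene was 122 at day 2 and 146 at day 12, which is 1.19-fold higher. Of this difference of 23.7 in the sum, 13.4 lay in the annotated transcript and 10.3 in the assembled ones. The exons of the assembled transcripts were not used here, so what distinguishes them is not described.

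**Figure D2:**
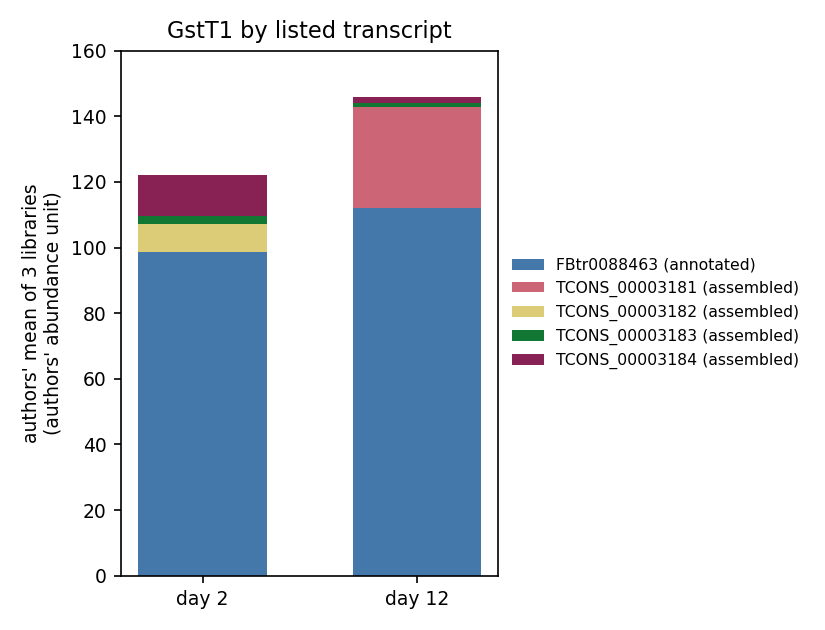
GstT1 at day 2 and day 12, as stacked bars of the authors' mean over 3 libraries for each of its 5 listed transcripts, in the authors' abundance unit from 0. The annotated transcript fills most of both bars, and TCONS_00003181 appears in the day 12 bar alone, at 30.9.

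Other genes also had transcripts far apart between the days. Of 2118 genes with several listed transcripts, 176 (8.31%) had a transcript that reached at least 10 on a day and stood at least 4-fold apart between the days, a listed 0 included. In 140 of those 176 genes (79.5%) the summed log2 ratio was within 0.5 of 0, as for GstT1, against 92.9% of all genes with several listed transcripts. A listed 0 at day 2 was given to 172 transcripts, of which 158 were assembled ones. Of the 172, 8 had a day 12 value at least as high as that of TCONS_00003181, itself counted among them. Among the 172, TCONS_00003181 was the only called transcript.

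GstT4, the other theta gene among the members, had the log2 ratio furthest from 0 of the 6. Its single listed transcript was at 22.5 at day 2 and 7.79 at day 12, 2.89-fold lower. The log2 ratio was -1.53, with a raw p of 0.00704 and an adjusted p of 0.160 per the authors' deposited table, so it was not called. Of all listed genes, 1.56% differed by at least as much in either direction. Counting falls alone, among listed genes with a mean of at least 10 over both days, 0.376% had a log2 ratio as low or lower. By the same count the share was 9.78% for GstE11, 19.3% for GstE6 and 38.7% for GstD3. The members were chosen with results of these data known, so these shares describe them and support nothing further. GstT4 ranked 4252 among the 5954 listed genes at day 2 and 5457 at day 12.

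Of the 5 measured follicle cell markers, 4 had a lower sum at day 12, while 58.5% of all genes had a higher one. Cp15, a chorion protein gene, was at 254 and 20.8, and the yolk protein genes Yp1, Yp2 and Yp3, the 3 measured earlier follicle cell markers, summed to 21.2 and 2.43. Ilp8, a hormone gene of mature follicle cells, was at 50.1 and 80.1. Per the authors' deposited table the raw p of the main transcript was 0.00275 for Cp15, 0.0177 for Yp1 and 0.00976 for Yp2. It was 0.591 for Yp3 and 0.186 for Ilp8, and none of these transcripts was called. None of the measured markers was listed at 0, and their part in the lower GstT4 value was not tested. In bulk samples, fewer cells of a type and less RNA per cell cannot be told apart.

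GstO1, the omega member, combined a small difference with the lowest p among the annotated member transcripts. It was at 75.7 at day 2 and 84.0 at day 12, 1.11-fold higher, a log2 ratio of 0.15. The raw p was 0.000320 and the adjusted p 0.0724 per the authors' deposited table, just short of a call. Of all listed genes, 44.6% differed by at least as much in their sum, so the size of the difference was ordinary for the table. Its neighbour GstO2, also of the omega class, summed to 117 and 125, with a raw p of 0.856 for its main transcript per the authors' deposited table. The pair together was at 193 and 209.

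The epsilon members both had lower means at day 12. GstE11 was at 22.0 and 18.2, a log2 ratio of -0.27, with a raw p of 0.0425 and an adjusted p of 0.289 per the authors' deposited table. The listed GstE11 transcript and the other annotated one, which had no listed value, have the same coding length of 675 nt and differ at the 3' end. GstE6 was the most abundant member at day 2, at 153, and was at 138 at day 12. Its log2 ratio was -0.15, with a raw p of 0.120 and an adjusted p of 0.448 per the authors' deposited table. Of its tandem neighbours, GstE5 had no listed value. GstE7 went the other way, with 5.62 and 12.6 and a raw p of 0.869 per the authors' deposited table. GstE6 and GstE7 together were at 159 and 151, a log2 ratio of -0.07.

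GstD3, the delta member, stood at nearly the same mean level on both days. It was at 58.0 at day 2 and 57.8 at day 12, a log2 ratio of -0.003. Per the authors' deposited table its raw p was 0.0657 and its adjusted p 0.348. The p is lower than that of GstE6, whose means were further apart. The flanking genes GstD2 and GstD4 had no listed value.

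Counted together, the members split by direction. The sum was higher at day 12 for GstT1 and GstO1 and lower for GstT4, GstE11, GstE6 and, by 0.128, GstD3, so that 2 of 6 were higher against 58.5% of all genes. Their median log2 ratio was -0.08, against 0.04 over all genes, and the 6 genes summed to 453 and 452. By the authors' own mark, a raw p under 0.05, the authors' deposited table holds 4 of the 10 member transcripts, against 16.0% of all transcripts. Of these, TCONS_00003181 and GstO1 were higher at day 12, against 9.47% of all transcripts, and GstT4 and GstE11 lower, against 6.56%. Since the members were chosen with results of these data known, these shares describe them and support nothing further.

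By level, measured per length, the members ranged over much of the glutathione transferase family. Of 38 family genes looked for, 21 had listed values, and the other 17 had none. GstD1, a delta enzyme known for breaking down the insecticide DDT, summed to 2149 and 2273 and made up 66.9% of the family sum at day 2 and 67.3% at day 12. Below it, at day 2, stood GstE6 at 153, the microsomal enzyme gene Mgstl at 122, GstT1 at 122, GstO2 at 117 and GstS1, the sigma enzyme, at 87.9. GstO1 was next at 75.7 and GstD3 at 58.0, while GstT4 and GstE11 came 15th and 16th. At day 12 GstT1 stood above GstE6, next after GstD1, and GstT4 was 19th of the 21. That place of GstT1 rested on the assembled TCONS_00003181, at 30.9. By its annotated transcript alone GstT1 was at 112 at day 12, below GstE6 at 138, Mgstl at 128 and GstO2 at 125. With no spread between libraries, which neighbours in this order differ cannot be told.

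**Figure D3:**
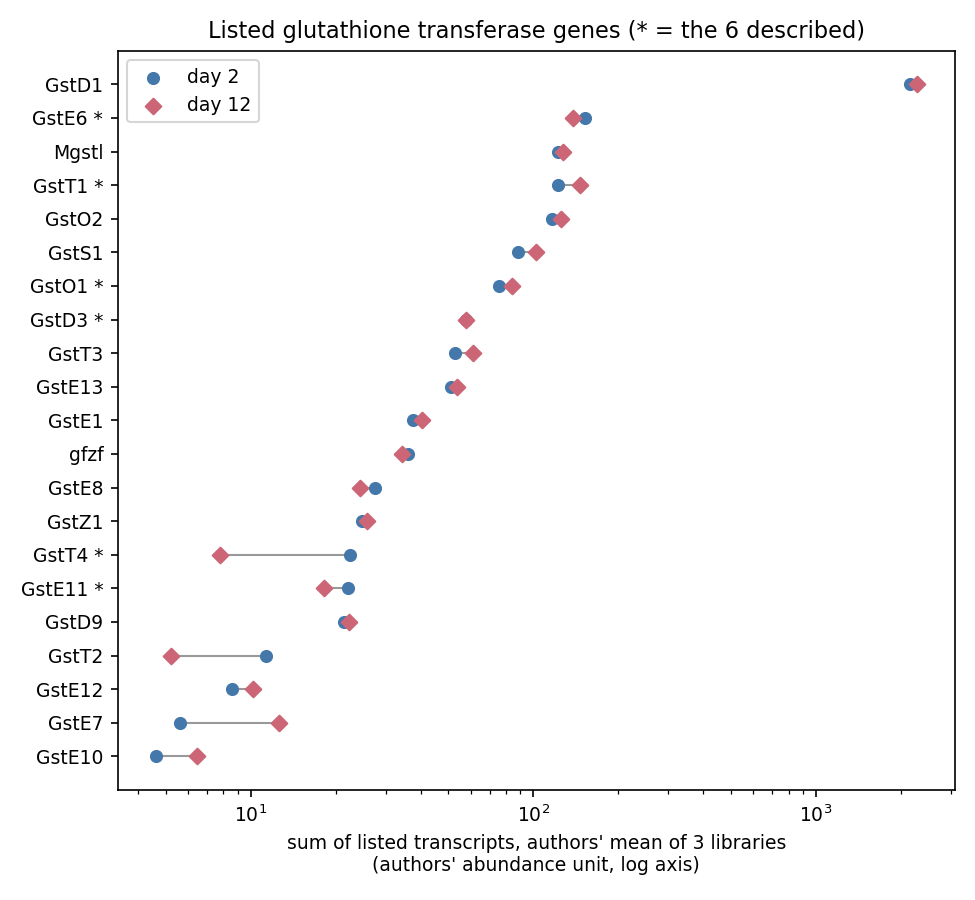
Sum over listed transcripts of each of the 21 measured glutathione transferase genes at day 2 (circles) and day 12 (diamonds), as the authors' mean of 3 libraries on a log axis, with the 6 members starred. GstD1 stands at 2149 and 2273, and among the members GstT4 has the widest gap, 22.5 to 7.79.

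Outside the members, most family genes had slightly higher means at day 12. Of the 15 family genes that are not members, 12 had a higher and 3 a lower sum at day 12, with a median log2 ratio of 0.08. Over all genes 58.5% had a higher sum, with a median of 0.04. By the most abundant transcript, 12 of the 21 measured family genes were higher, against 14 by sum, since GstD9 and GstE10 turned lower. For the 15 genes that are not members, no most abundant transcript had a raw p under 0.05 per the authors' deposited table. The lowest of them there was 0.0910, for gfzf, a gene with a transferase domain beside zinc fingers. Over all genes 22.5% of most abundant transcripts passed that threshold. The lowest p of the family lie among the members, which were chosen with results of these data known, so this contrast supports nothing further. The theta genes were spread the most among classes with several measured genes: GstT3 was at 52.8 and 61.1 and GstT2 at 11.3 and 5.21, beside GstT1 and GstT4. The p of the main GstT2 transcript was 0.138 before adjustment per the authors' deposited table, and GstT1 and GstT2 together were at 134 and 151. GstE13 was at 51.3 and 53.9, GstE1 at 37.6 and 40.5, GstE8 at 27.5 and 24.4, GstE12 at 8.59 and 10.2 and GstE10 at 4.61 and 6.45. The listed GstE12 transcripts were all assembled. GstZ1, the zeta enzyme of tyrosine breakdown, was at 24.9 and 25.8, and GstD9 at 21.3 and 22.2. The difference between members and other family genes was not tested.

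**Figure D4:**
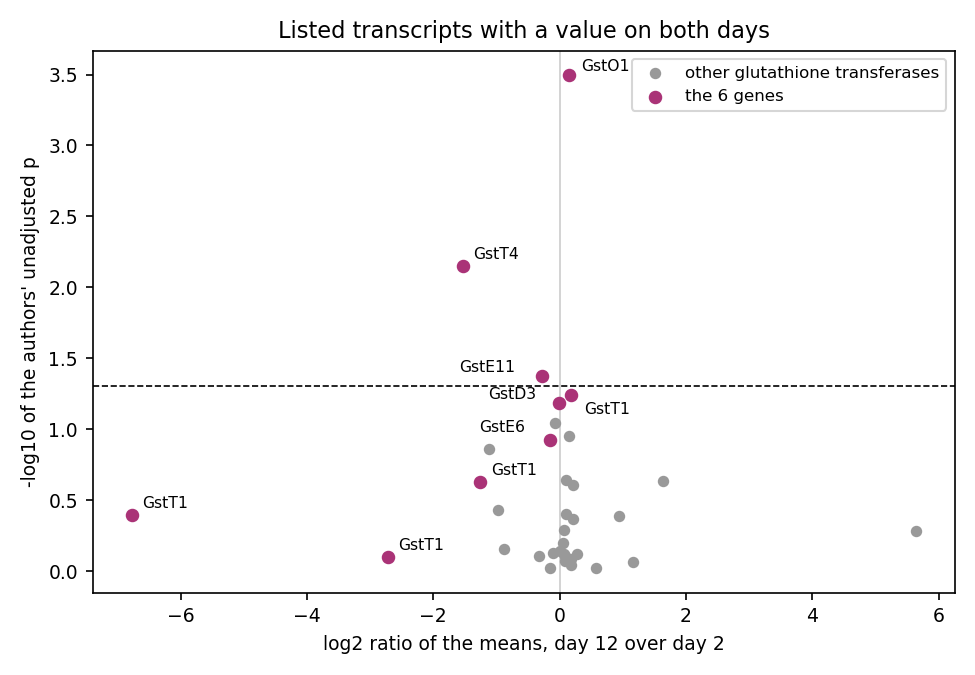
Listed glutathione transferase transcripts with a value on both days, by the log2 ratio of the means (day 12 over day 2) and by -log10 of the authors' raw p, with the dashed line at p = 0.05. GstO1 is highest at a log2 ratio of 0.15, and the transcript of GstT1 furthest to the left, at -6.77, lies below the line.

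Genes that supply or share glutathione were examined as a list. Of 35 genes looked for, 27 were measured, and 0 of their 49 transcripts were called at an adjusted p under 0.05 per the authors' deposited table. At a raw p under 0.05 their most abundant transcripts included 5 higher and 4 lower ones at day 12, against 13.5% and 9.07% of all genes. The median log2 ratio of the list was 0.05, against 0.04 over all genes, with 14 genes higher and 13 lower in sum.

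In glutathione synthesis, means lay in both directions. Gclm, the modifier subunit of glutamate-cysteine ligase, was at 185 at day 2 and 207 at day 12, with a raw p of 0.00192 and an adjusted p of 0.117 per the authors' deposited table. The most abundant transcript of Gclc, the catalytic subunit, was an assembled one. It was at 19.0 and 21.2 with a raw p of 0.0218 per the authors' deposited table, but the gene summed to 33.8 and 32.3. The annotated Gclc transcript was at 1.26 and 1.05 and the other assembled one at 13.6 and 10.1, with raw p of 0.213 and 0.0611 there. Gss2 and Gss1, genes of glutathione synthetase, which adds glycine, were at 5.70 and 2.77 and at 1.92 and 0.439, Gss1 by an assembled transcript alone. Neither had a raw p under 0.05 in that table. Ggt-1, a transpeptidase that starts the breakdown of glutathione, was at 265 and 222, with a raw p of 0.0333 per the authors' deposited table.

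Reducing partners differed among themselves. Trxr-1, the thioredoxin reductase that in flies also keeps glutathione reduced, summed to 259 and 195, and its main transcript had a raw p of 0.00445 and an adjusted p of 0.146 per the authors' deposited table. Its germline substrate dhd, a thioredoxin of eggs, was at 8544 and 9049 in sum, above every listed glutathione transferase per length, with a raw p of 0.993 for its main transcript per the authors' deposited table. Grx1, a glutaredoxin, was at 61.7 and 65.5 and Clic, a relative of the omega transferases, at 60.3 and 66.2, with raw p of 0.0300 and 0.0245 for their main transcripts per the authors' deposited table.

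**Figure D5:**
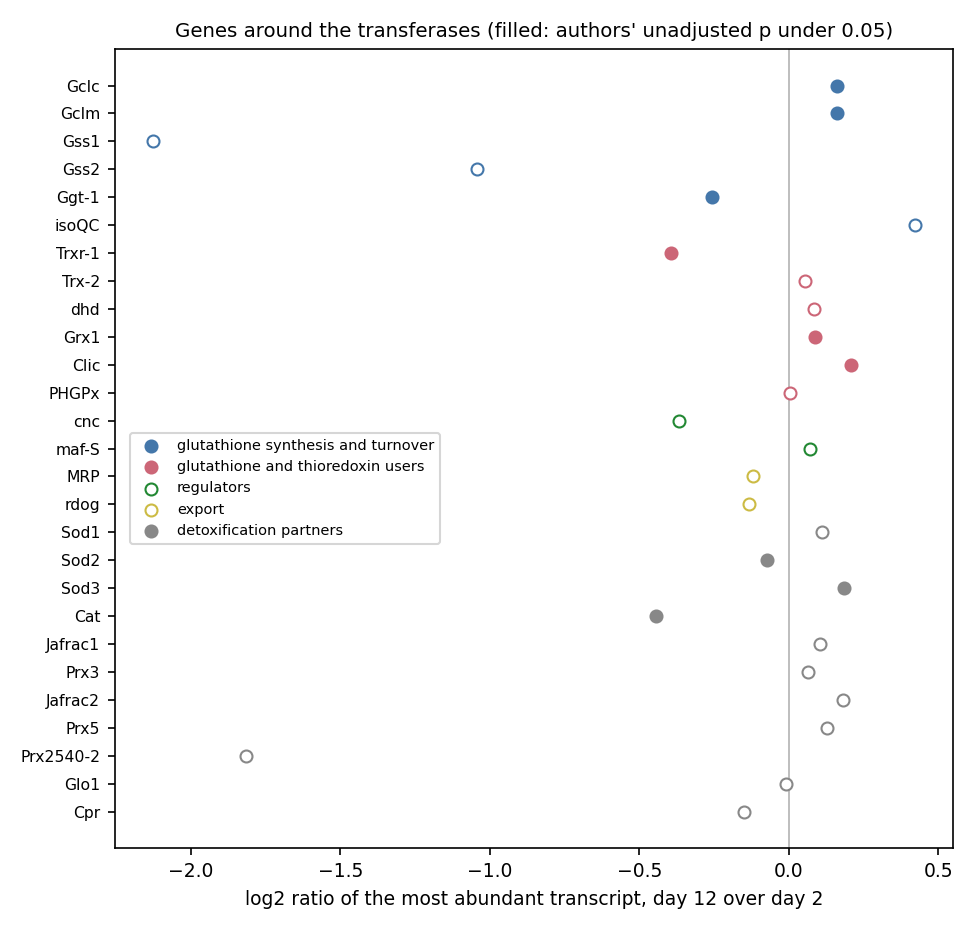
Log2 ratio, day 12 over day 2, of the most abundant transcript of 27 measured genes around the transferases, coloured by role, with filled points at a raw p under 0.05 per the authors' deposited table. Filled points lie on both sides of 0, with 5 higher and 4 lower.

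Among enzymes against superoxide and peroxide, Sod3 had the lowest p of the list. Its main transcript was at 119 and 136, with a raw p of 0.000268 and an adjusted p of 0.0697 per the authors' deposited table. Sod2, the mitochondrial enzyme, was at 108 and 103 and catalase, Cat, at 13.4 and 9.82, with raw p of 0.0113 and 0.00917 per the authors' deposited table. The regulator cnc, the fly relative of Nrf2, which switches on many glutathione transferase genes, had assembled transcripts alone. It summed to 35.1 and 28.9, with a raw p of 0.896 for its main transcript per the authors' deposited table. Its partner maf-S was at 89.7 and 94.1, and its inhibitor Keap1 had no listed value.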

How the data were processed

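Linear RNA of stage 14 follicles was sequenced in 6 libraries, 3 per day, grouped by their titles. The submitters' processing notes name StringTie, HISAT2, DESeq2 and STAR, and build dm6, with no roles or versions. The authors deposited 1 signal value per transcript and day, each covering 3 libraries per the file headers, and a log2 fold change. They also deposited a p-value and an adjusted p-value per transcript, by a test that the sources used here do not give. Recomputed from the means, the log2 ratio matched the deposited one wherever that is a number, and the adjusted p matched a Benjamini-Hochberg correction across all 10162 transcripts. The circRNA table names no host gene and was not used here.

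With Python 3.11.15 and pandas 2.3.3, values of all listed transcripts were summed per gene and day, without pseudocount. The sums and the adjustment were tested on simulated data. The most abundant transcript is the one with the highest mean of both days. A call is an adjusted p under 0.05. No own test was possible without values of single libraries. Annotation is Ensembl release 115. The named genes were all members, all measured family genes, and of the surrounding genes those at a raw p under 0.05 and 6 fixed ones; Gss1, Gss2 and maf-S fall outside this rule and were added after their values were seen. Members and lists were chosen with earlier results of these data known. The list of surrounding genes also held isoQC, a glutaminyl cyclase outside glutathione metabolism, and was kept as written. The symbol GstO4 was not matched. Alternatives were the most abundant transcript, annotated transcripts alone, scaling to the total or the median gene, a pseudocount of 1, the raw p, and adjustment over transcripts with a mean of at least 1.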

Additional observations from a re-analysis of the deposited data

How the results depend on the processing

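No paired analysis was possible because the deposited columns hold 1 value per day and no values of single libraries. Neither the replicate block nor the fits without a library were therefore run. Of 38 alternative values for 10 results, 36 kept their direction and stayed close. Close means within 0.1 on the log2 scale, or within 1.5 times of a count. Of these 36, 10 could not move, since the 5 members other than GstT1 have 1 listed transcript each, an annotated one. Scaling to the total or to the median gene shifts the log2 ratio of every gene by the same amount. Both amounts were under 0.1 (0.04 for the median gene), so those log2 ratios could not pass the limit either. The 36 therefore says little about how stable the results are. The log2 ratio of GstT4 was -1.42 with a pseudocount of 1, against -1.53 without, since adding a constant shrinks ratios of low values. The number of member transcripts called was 4 with a raw (unadjusted) p under 0.05, against 1 with the adjusted p. GstT1 had a log2 ratio of 0.18 by its annotated transcript alone. Unknown depth limits what can be said of transcripts near 0.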

Other observations

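The share of low and high p among transcripts far apart between the days was close to that of the whole table. TCONS_00003182 of GstT1 was at 8.55 and 0.0783, 109-fold apart, with a raw p of 0.401 per the authors' deposited table. Of 583 transcripts with a mean of at least 1, neither day at 0 and at least 4-fold apart, 245 (42.0%) had a raw p of at least 0.4 there, against 41.9% of all transcripts, and 84 (14.4%) had one under 0.05, against 16.0%. GstD3 had a raw p of 0.0657 with means that differed by 0.128 per the authors' deposited table. Of 215 transcripts with a mean of at least 10 and a log2 ratio within 0.01 of 0, 24 (11.2%) had a raw p under 0.1 there, against 23.9% of all transcripts. The shares of all transcripts were taken without a minimum mean and with listed values of 0 included. These comparisons are therefore not matched for abundance. GstE7 and GstT2, neighbours of GstE6 and GstT1, were further from level than GstE6 or GstT1, with log2 ratios of 1.16 and -1.12. Neither GstE7 nor GstT2 had a raw p under 0.05 per the authors' deposited table.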
